A study of Danio rerio with 3 samples.

Results

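Long stretches of the zebrafish genome in which no H3K27ac was called in the posterior trunk are described here, together with the H3K27me3 regions inside them. The posterior trunk was taken from zebrafish of wild type genotype at 16 hours post fertilisation, and CUT&RUN, in which a nuclease bound to an antibody releases the DNA next to a histone mark, gave 3 libraries. H3K27ac was measured in 2 of them (replicates 1 and 2) and H3K27me3 in 1, and all 3 share genotype, tissue and stage. Whether the 2 H3K27ac replicates are separate pools of embryos is not in the labels, and control libraries were not used here. A stretch is an interval of at least 100 kb between neighbouring H3K27ac regions of the union of both replicates, on chromosomes 1 to 25 without chromosome 4. There were 816 such stretches among 74937 intervals, and 602 of the 16409 H3K27me3 regions on these chromosomes lay wholly inside one. The stretches were selected on the called H3K27ac regions of both replicates, so their lack of H3K27ac is no finding, whereas the H3K27me3 library took no part in the choice.

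H3K27ac marks active promoters and enhancers. H3K27me3 is written by Polycomb repressive complex 2 and covers many developmental genes in cells that keep them silent. An acetyl group and methyl groups cannot sit on the same lysine, and a region with neither mark may hold other kinds of silent chromatin, such as that marked by H3K9me3, or sequence to which short reads cannot be placed. The tissue is a mixture of cells, so a mark carried by few of them can fall below the level at which a region is called.

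H3K27me3 regions were sparser inside the stretches than elsewhere, by count and by bp. The stretches held 4.82 H3K27me3 regions per Mb (95% Poisson interval 4.45 to 5.22) over 125 Mb. The rest of the 1266 Mb between the first and last H3K27ac region of each chromosome held 13.8 per Mb (95% interval 13.6 to 14.1, 15786 regions). The ratio was 0.349 (exact 95% interval 0.321 to 0.378). The intervals cover counting error only, since neighbouring regions are not independent, and H3K27me3 has no replicate. All values per Mb count every bp, including any assembly gaps and sequence that reads cannot be placed on. Measured as bp under H3K27me3 regions per Mb, the values were 2762 inside and 7293 in the rest, a ratio of 0.379.

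Part of this ratio follows from the choice of the stretches, because an H3K27me3 region that overlaps H3K27ac cannot lie inside one. With those regions and the H3K27ac regions themselves taken out of the rest, the rest held 10.1 H3K27me3 regions per Mb and the ratio was 0.478 (exact 95% interval 0.440 to 0.519). H3K27me3 was thus less frequent in the stretches also against intervals free of H3K27ac. Each of the 24 chromosomes had fewer H3K27me3 regions per Mb in its stretches than in its whole rest, with H3K27me3 on H3K27ac kept in. The ratio to the whole rest ranged from 0.123 on chromosome 6 to 0.801 on chromosome 14, with a median of 0.328. Part of these ratios again follows from the choice, and ratios without H3K27me3 on H3K27ac are not given by chromosome.

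**Figure D1:**
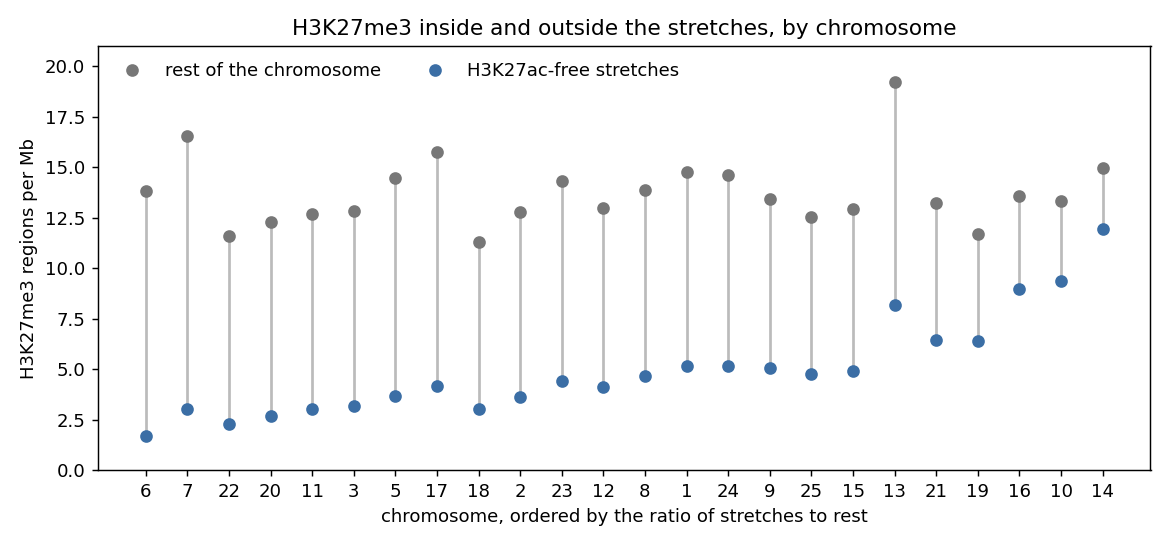
H3K27me3 regions per Mb in the H3K27ac-free stretches (blue) and in the whole rest (grey) of each of 24 chromosomes, 1 library. The rest keeps the H3K27me3 regions that overlap H3K27ac. The blue point lies below the grey point on every chromosome, and the pair lies closest on chromosome 14 (ratio 0.801).

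The stretches made up 9.86% of the span. With H3K27ac replicate 2 alone this share was 16.5%, with replicate 1 alone 29.2%, and 55.9% when H3K27ac had to be found in both replicates. Their lengths ran from 100086 bp to 697 kb, with a median of 128 kb and quartiles of 112 and 165 kb, whereas the median over all intervals was 9.72 kb. A length of at least 200 kb was reached by 112 stretches, at least 300 kb by 38 and at least 500 kb by 6. The length minimum cut through a continuous range. The 3 intervals just below it measured 99881, 99903 and 99969 bp and held 1, 0 and 0 H3K27me3 regions, and the 3 just above it measured 100086, 100193 and 100198 bp and held 1, 0 and 0.

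H3K27me3 was sparser the longer the interval, with no step at 100 kb alone. In intervals of under 5 kb there were 13.7 H3K27me3 regions per Mb, wholly inside the interval (95% interval 12.6 to 14.9). In those of 25 to 50 kb there were 9.09 (8.78 to 9.41), and in those of 50 to 100 kb 7.31 (6.97 to 7.67). Stretches of 100 to 200 kb had 5.64 (5.17 to 6.15) and those of at least 200 kb had 2.57 (2.06 to 3.18). Each of the classes from 10 kb upward had a 95% interval below that of the class before it. These cover counting error only, since neighbouring regions are not independent, and no difference between classes was tested. A region had to lie wholly inside its interval, so the shortest intervals could hold fewer. Assembly gaps and sequence that reads cannot be placed on add to the length of an interval, and their share by class was not tested.

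**Figure D2:**
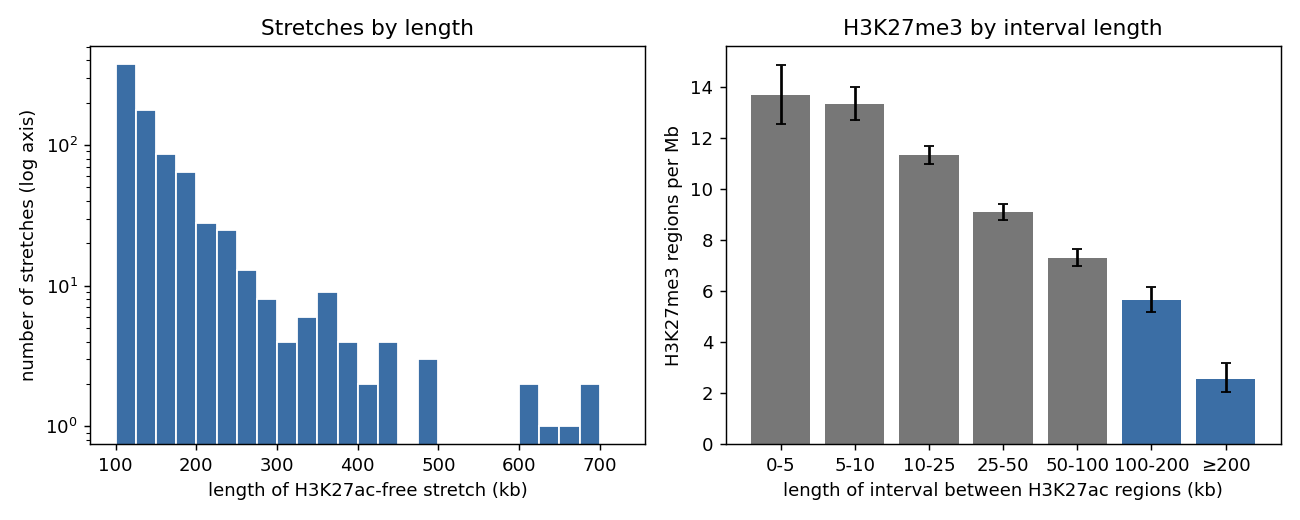
Left, the number of H3K27ac-free stretches by length in bins of 25 kb, on a log axis. Right, H3K27me3 regions per Mb by length class of the interval between H3K27ac regions, with 95% Poisson intervals, the classes of at least 100 kb in blue. The density goes from 13.7 per Mb under 5 kb to 2.57 per Mb at 200 kb and over.

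Most stretches held no H3K27me3 region. At least 1 was found in 310 of 816 stretches, or 38.0% (exact 95% interval 34.6 to 41.4%), against 10.5% of all intervals, most of which are far shorter. A single region was found in 184 stretches, 2 in 68, 3 in 30, 4 in 18, and 5 or more in 10. The 506 stretches with none made up 75.9 Mb. Stretches with and without H3K27me3 were close in length, with medians of 131 and 126 kb. Among stretches of at least 200 kb 39.3% held a region (exact 95% interval 30.2 to 49.0%, 44 of 112), and among those of 100 to 200 kb 37.8% (34.2 to 41.5%, 266 of 704).

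The longest stretch lay on chr1:56651083-57347783 (danRer11), measured 697 kb and held 3 H3K27me3 regions with a 10-kb tag density of up to 6.81. This density is the number of tags in the 10 kb around a summit, as the peak caller used it, over its genome-wide background. It is known only at called regions, its lowest value is 1, and over all regions outside the stretches its median was 6.05. The next in length, chr7:2958425-3636758 with 678 kb, chr3:3827123-4500506 with 673 kb and chr1:34753877-35389712 with 636 kb, held no H3K27me3 region. On chromosome 6, 16725105 to 17339759 (615 kb) held 1 region with a density of 4.54, and on chromosome 3, 2166495 to 2780791 (614 kb) held none. The other 4 of the 10 longest were on chromosomes 1, 10, 7 and 6, measured 439 to 496 kb and held 3, 0, 1 and 1 regions. In all, the 10 longest held 9 H3K27me3 regions in 5818 kb, and none of the densities exceeded 6.92.

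Of the stretches with no H3K27me3 region, the longest after the 4 named above was chr10:12006113-12494593, with 488 kb. The stretch on chromosome 7 was also the longest interval with no region in any of the 3 lists. Of such intervals, free of both marks, 658 reached 100 kb. Chromatin without either mark, sequence that reads cannot be placed on and gaps in the assembly cannot be told apart from these lists.

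The H3K27ac regions at the ends of the stretches had lower medians than the others. Of the 1571 H3K27ac regions that flank a stretch, 313 (19.9%) were found in both replicates, 419 (26.7%) in replicate 1 only and 839 (53.4%) in replicate 2 only. Of the other 73390 regions of the union, 32.7% were found in both, 23.7% in replicate 1 only and 43.7% in replicate 2 only. Flanking regions had a median -log10 q of 3.11 in replicate 1 and 2.68 in replicate 2, against 3.47 and 3.40 for the others. Their median 10-kb tag density of H3K27ac was 1.51 in replicate 1 and 1.27 in replicate 2, against 3.13 and 2.76. Being next to a long interval is part of the rule, so these values describe the flanks and were not tested.

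Single replicates gave more stretches. There were 1350 without H3K27ac replicate 1 and 2206 without H3K27ac replicate 2. An interval between fewer H3K27ac regions cannot be shorter than the stretch it holds, so its greater length is no finding. The interval of replicate 1 alone that held a stretch had a median length of 193 kb (814 stretches), that of replicate 2 alone 149 kb (816 stretches). That between regions found in both replicates had a median of 364 kb (812 stretches). For 344 stretches replicate 2 alone gave the same bounds, and for 98 replicate 1 alone did. The longest stretch, on chromosome 1, kept its length whichever was used (697 kb in each case). In contrast, the one on chromosome 7 was 1189 kb long in replicate 1 and 678 kb in replicate 2.

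Some stretches followed each other with a single H3K27ac region between them. There were 52 such runs of 2 or more stretches, with 113 stretches or 13.8% of all, and 6 runs of 3 or more. The 61 regions that separate the stretches of a run had a median width of 253 bp; 4 were found in both replicates, 19 in replicate 1 only and 38 in replicate 2 only. The run with most stretches held 5, on chromosome 7 from 2436138 to 3979090, over 1543 kb with 1 H3K27me3 region. One on chromosome 23, from 7990450 to 8511095, held 4 stretches and 3 H3K27me3 regions. Of the 4 other runs, each of 3 stretches, those on chromosomes 3, 20 and 6 held 0, 2 and 0 H3K27me3 regions, and one on chromosome 14 held 60.

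Along the chromosomes the share of bp in stretches varied with the distance from the ends. They took up 15.6% of the span of chromosome 3, the highest share, and 6.42% of chromosome 5, the lowest; the median over 24 chromosomes was 9.69%. Within 1 Mb of the nearer end of the span 8.31% of bp lay in stretches, and 26 stretches had their centre there. From 1 to 2.5 Mb it was 15.2%, from 2.5 to 5 Mb 14.3%, from 5 to 10 Mb 9.72%, from 10 to 20 Mb 10.2% and beyond 20 Mb 6.68%. Pooled over the chromosomes, the share was thus highest between 1 and 5 Mb from an end. Long stretches at a few ends weigh in this. Among them are the run of 1543 kb on chromosome 7 and stretches of 697 kb on chromosome 1 and 673 kb on chromosome 3. The spread of the share over single chromosome ends is not given. Of 1258 windows of 1 Mb, 659 (52.4%) held no part of a stretch and 35 lay in stretches over at least 50% of their length. The window with most, on chromosome 7 from 2170691, was covered to 97.3% and held no H3K27me3 summit. The next, on chromosome 1 from 57010942 and on chromosome 3 from 2032877, were covered to 90.8 and 89.0% and held 9 and 1.

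**Figure D3:**
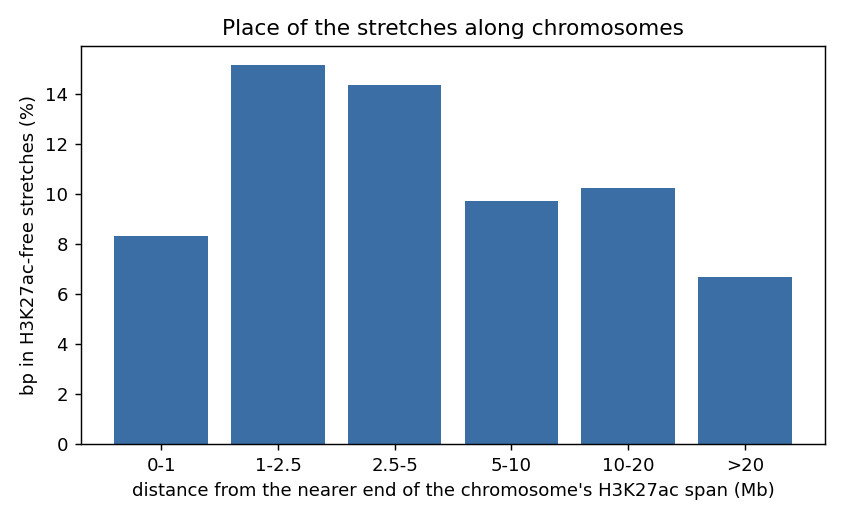
Percentage of bp in H3K27ac-free stretches by distance from the nearer end of the chromosome's H3K27ac span, summed over 24 chromosomes. The bars are highest from 1 to 2.5 Mb (15.2%) and from 2.5 to 5 Mb (14.3%).

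Within the stretches, wholly inside H3K27me3 regions were about as dense in the outer 10 kb as from there to 50 kb. The 31 regions that lay only partly inside a stretch were left out by the rule. This can lower the count nearest the flanks. In the outer 10 kb at each side there were 5.33 H3K27me3 regions per Mb (95% interval 4.27 to 6.58), from 10 to 25 kb 5.31 (4.44 to 6.31) and from 25 to 50 kb 5.56 (4.86 to 6.34). Beyond 50 kb from either flank there were 3.66 (3.11 to 4.27), a zone to which the longer stretches contribute most. At the same distance from H3K27ac, intervals of 50 to 100 kb had more: 8.29 within 10 kb (7.63 to 8.99), 7.07 from 10 to 25 kb (6.57 to 7.59) and 6.58 from 25 to 50 kb (5.94 to 7.28). In the classes within 25 kb the 95% intervals for stretches and shorter intervals did not overlap, and from 25 to 50 kb they did. These cover counting error only, since neighbouring regions are not independent, and no difference was tested. Without the 4 stretches richest in H3K27me3, described next, the values in the stretches were 5.05, 4.72, 4.63 and 3.16 from the flank inward. These 4 were picked for their H3K27me3 and nothing was taken from the shorter intervals, so these values are not compared with them.

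**Figure D4:**
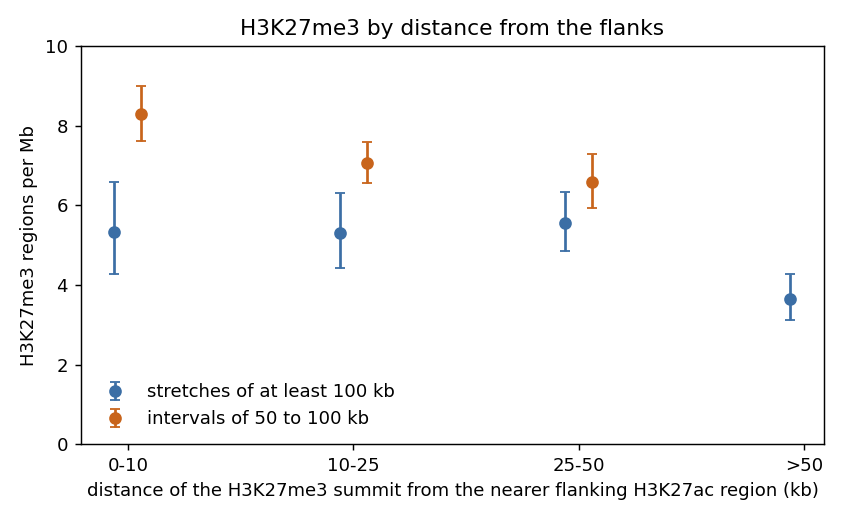
H3K27me3 regions per Mb by distance of the summit from the nearer flanking H3K27ac region, with 95% Poisson intervals, in stretches of at least 100 kb (blue) and in intervals of 50 to 100 kb (orange, no class beyond 50 kb). The blue points lie at 5.31 to 5.56 up to 50 kb and at 3.66 beyond it.

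H3K27me3 regions were unevenly spread over the stretches. In 4 stretches, 0.426% of the length, lay 81 of the 602 regions (13.5%) and 14.0% of the bp. These are all stretches with 13 or more regions, a number chosen after the values were seen. The other 521 regions were spread over the rest of the stretches. The count per stretch had a mean of 0.738 and a variance 4.28 times as large, and 1.82 times as large as its mean without these 4. Without them the stretches held 4.19 regions per Mb; a lower value follows from leaving out the richest. The high values of chromosomes 14 and 10 rested on these stretches: without them their ratios were 0.236 and 0.289 in place of 0.801 and 0.701, and the highest ratio was 0.661, on chromosome 16.

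On chromosome 14, 3 neighbouring stretches from 1962798 to 2386864 held 60 H3K27me3 regions in 424 kb, with 20, 13 and 27 regions from left to right. H3K27me3 regions covered 7.94% of the bp of these stretches. There were 14.2 regions per 100 kb, which is 10.2 times the density of the rest of the span. Summits lay a median of 4.03 kb apart (quartiles 1.24 and 7.14 kb). The 10-kb tag density was 2.32 to 65.7 with a median of 37.9, and 58 of the 60 regions reached 10. Of all H3K27me3 regions on the chromosomes used, 37.9% did. Neighbouring regions share tags of the same 10 kb, so the 60 values are not independent. Their deposited fold had a median of 2.55, below the 4.06 of all regions inside stretches, and their -log10 q a median of 4.60, also against 4.06. A high window density enters the background against which the fold is scored.

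The H3K27ac regions that bound and divide this locus were each called in 1 replicate. The left flank was called in replicate 1 only (-log10 q 1.76), and the dividing regions and the right flank in replicate 2 only (2.68, 5.68 and 1.96). The value of 5.68 lay above the median of replicate 2 regions that flank no stretch (3.40), and the other values of replicate 2 lay below it. The H3K27ac density at all 4 was 1 to 1.13. In replicate 1 alone the whole locus lay in an interval of 441 kb with 67 H3K27me3 regions, while replicate 2 alone divided it. Between regions found in both replicates it lay in one of 621 kb with 75 H3K27me3 regions.

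The stretch on chromosome 10 from 21641259 to 21749727 held 21 H3K27me3 regions in 108 kb, or 19.4 per 100 kb, which is 14.0 times the rest of the span. They covered 13.6% of it, the highest share of the 10 stretches with most H3K27me3 bp. Summits lay a median of 3.50 kb apart (quartiles 1.84 and 6.26 kb), close to the spacing on chromosome 14. Densities were 9.67 to 91.9 with a median of 45.4. Both flanks were called in replicate 1 only, with -log10 q values of 2.32 and 2.51. In replicate 2 alone the interval was 235 kb long with 41 H3K27me3 regions, and between regions found in both replicates it was 363 kb long with 50.

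**Figure D5:**
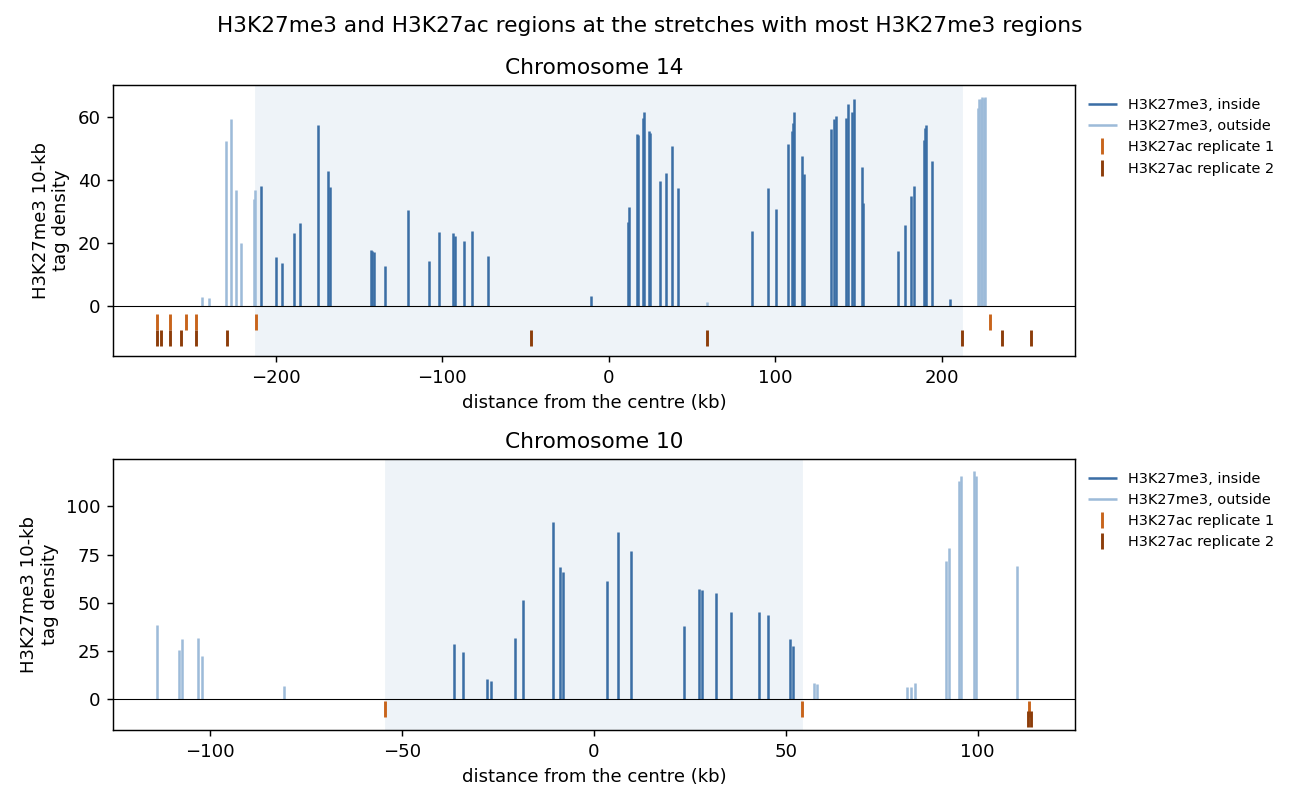
H3K27me3 10-kb tag density (vertical lines, 1 per region) and H3K27ac regions of replicates 1 and 2 (ticks below 0, whose height has no value) by distance from the centre of the chromosome 14 locus (3 stretches, shaded) and of the chromosome 10 stretch (shaded), with 60 kb to each side. H3K27me3 reaches 65.7 and 91.9 in the shaded parts and goes on beyond them (pale lines).

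The other stretches among the 10 with most H3K27me3 bp held 3 to 7 regions. On chromosome 16, 29224402 to 29328120 held 7 regions over 5298 bp with a density of up to 111. On chromosome 13, 29400786 to 29509857 held 4 over 4635 bp, up to 54.0. The stretch on chromosome 7 from 40810482 to 40916649 held 6 over 4253 bp and the densest H3K27me3 region of all stretches. That region, chr7:40886810-40887104, had a density of 308 from 5703 tags at 29.6 kb from the nearer flank. On chromosome 16 near its end, 54674888 to 54780471 held 7 regions with a density of up to 39.6 between flanks that both replicates called. On chromosome 9, 54245531 to 54360639 held 4, up to 204, and on chromosome 3, 34851980 to 34985787 held 3, up to 17.3. High density therefore occurred in stretches with few regions as well as in those with many. It did not always go with a high deposited fold. In the stretches on chromosomes 7 and 9 the fold reached only 2.26 and 2.54, below the median of 4.06 of all regions inside stretches. In the other stretches of this paragraph it reached 4.37 to 6.91. High densities are thus not read as the strongest local H3K27me3. Control libraries were not used here, and the cause of these densities was not tested.

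By density, at most 1 region per stretch, chromosome 9 came after chromosome 7, with 204 at summit 54291799. A region on chromosome 3 with its summit at 1492272 had 111, from 2059 tags, in a stretch of 375 kb. The stretches on chromosomes 16 and 10 followed, with 111 and 91.9. The others of the 10 densest lay on chromosome 5 (76.8), on chromosome 14 in 2 stretches of the locus above (65.7 and 61.6), on chromosome 17 (62.0) and on chromosome 3 (58.8). The region on chromosome 5 had its summit 1.61 kb from the nearer flank, and the other 9 lay 10.3 to 68.8 kb from one. A density of at least 10 was reached somewhere in 74 of the 816 stretches.

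As single regions, H3K27me3 inside the stretches had a median width and -log10 q close to those of the whole rest. Its median width was 406 bp (quartiles 246 and 744) against 389 bp (242 and 650), and its median -log10 q was 4.06 against 3.97. A -log10 q of at least 5 was reached by 39.0% of regions inside (exact 95% interval 35.1 to 43.1%) and 37.9% of the rest (37.2 to 38.7%), where 38.0% of all regions did. Widths of at least 1000 bp made up 15.4% inside (12.7 to 18.6%) and 11.6% of the rest (11.1 to 12.1%). The regions of the rest that do not overlap H3K27ac had a median width of 379 bp and a median -log10 q of 3.83. Of these, 11.0% were at least 1000 bp wide (10.4 to 11.6%) and 36.5% reached a -log10 q of 5 (35.6 to 37.4%). The interval of the wider regions inside lay above those of the whole rest and of the rest without H3K27ac. For -log10 q the interval inside overlapped those of the same sets. All these intervals treat neighbouring regions as independent, and no difference was tested.

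Window density had a somewhat lower median inside. It was 5.40 (quartiles 2.05 and 15.4) against 6.05 (2.38 and 19.8), a ratio of 0.893 (95% interval of the inside median over the rest median 0.768 to 1.04), and the range inside was 1 to 308. A density of at least 10 was found in 34.9% of regions inside (exact 95% interval 31.1 to 38.8%), in 38.1% of the rest (37.3 to 38.8%) and in 37.9% of all regions. Of the regions of the rest that do not overlap H3K27ac, 41.6% reached it (40.7 to 42.5%), and against these the ratio of the medians was 0.769 (0.662 to 0.900). The interval of the ratio thus included 1 against the whole rest and lay below 1 against the rest without H3K27ac. Neighbouring regions share tags of the same 10 kb and are not independent. No difference was tested, so these intervals do not decide whether the densities differ. Without the 4 richest stretches the median inside was 4.32 and the share 25.3%, values given with no comparison, because those stretches were picked for their H3K27me3 and the rest kept its own rich places.

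H3K27me3 inside the stretches rarely formed domains of 5 or more regions at a joining gap of 3 kb. Regions joined across gaps of at most 3 kb gave 454 domains wholly inside, of which 2 held 5 or more regions, and 151 of 12350 domains did on all the chromosomes used. A region that joined no other counts as a domain of 1. Summits in the rich loci of chromosomes 14 and 10 lay a median of 4.03 and 3.50 kb apart, so this gap divides each locus into several domains. Of the regions, 2.0% lay in such domains inside (exact 95% interval 1.03 to 3.46%, 12 of 602) against 5.61% in the rest (5.26 to 5.98%) and 5.47% of all. Regions of the same domain are not independent, so these intervals are too narrow, and no difference was tested. Regions that joined no other made up 58.6 and 58.8%. The distance to the nearest other H3K27me3 region had a median of 8.91 kb inside and 6.42 kb in the rest. Its upper quartile was 75.1 kb inside and 30.4 kb in the rest. Without the 4 richest stretches the median inside was 20.9 kb.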

How the data were processed

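Samples were grouped by their titles. The submitters' processing notes list MACS2 2.2.7.1, bedtools 2.30.0, Picard 3.0.0, SAMtools 1.16.1, Bowtie2 2.4.5, cutadapt 4.1 and danRer11, with no settings. Each library has a peak list of its own. The deposited columns are fold (a ratio of pileup to background), p-value and q-value as -log10, and the authors' score. Touching lines were merged into regions that keep their highest values: 17125 in H3K27me3, 45538 and 60431 in H3K27ac replicates 1 and 2.

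Fold and p-value were inverted to pileup and local background, read from the values as tags of 200 bp in 10 kb. Every line had a solution within 0.001, and simulated lines were recovered in 100.0% of 4000 per library. This recovery checks the inversion only. It does not test the reading as tags of 200 bp in 10 kb, which the submitters' notes do not give. The genome-wide background was 0.370 tags in H3K27me3 and 0.806 and 1.1 in H3K27ac replicates 1 and 2; no read totals were used here.

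The span of a chromosome runs from its first to its last H3K27ac region, and 31 H3K27me3 regions partly inside a stretch count as rest. Intervals are Clopper-Pearson for shares, exact Poisson for counts per Mb and conditional binomial for their ratio. No test across samples was made, as H3K27me3 has 1 library. Members, classes and places were chosen with earlier results of these data known. Named places are the 10 longest stretches, the 10 with most H3K27me3 bp, the 5 longest without it, the 10 densest H3K27me3 regions (1 per stretch), 3 intervals on each side of the minimum and the extreme chromosomes; runs and windows were added later. Genes were not placed, since no annotation of danRer11 was used here. Alternatives were other length minimums and -log10 q thresholds, other H3K27ac sets, chromosome 4 included, trimmed ends, summits in place of regions, and the richest stretches left out. Tools were matplotlib 3.10.9, scipy 1.17.1, pandas 2.3.3 and numpy 2.4.6 under Python 3.11.15.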

Additional observations from a re-analysis of the deposited data

Results flagged for a closer look

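Chromosome 4 is listed because it was outside the comparisons and its stretches also held H3K27me3: 34 of its 484 H3K27me3 regions (7.02%) lay wholly inside its H3K27ac-free stretches. Its 137 stretches made up 52.5% of its span and reached 1398 kb, and they held 0.829 H3K27me3 regions per Mb against 12.2 in the rest of the chromosome.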

How the results depend on the processing

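No paired analysis was possible because the replicate number 1 is the only one that both antibodies share. H3K27me3 regions were fewer per Mb inside than in the rest under each of the 13 alternatives, with ratios of 0.195 to 0.545. Except where H3K27me3 on H3K27ac was left out, the rest kept it, so part of a ratio below 1 follows from the rule. How many stretches there are depends on the choice. Values that moved follow in the order number of stretches, percentage of the span, H3K27me3 regions inside, ratio of regions per Mb, ratio of bp per Mb, and percentage of stretches with H3K27me3, where each moved. The shares of 2.64, 16.4 and 16.5% of the span are also listed, though they did not count as moved. A minimum of 50 kb gave 4316, 28.3%, 2306, 0.416, 0.445 and 30.2%. A minimum of 200 kb gave 112 stretches, 2.64% of the span, 86 regions, ratios of 0.195 and 0.182 and a median density ratio of 0.714. H3K27ac with a -log10 q of at least 5 gave 3262, 61.2%, 7562, 0.545, 0.591 and 71.6%. H3K27ac found in both replicates gave 3184, 55.9%, 6498, 0.521, 0.560 and 69.0%. Lists of equal size gave 1303 stretches, 16.4% of the span, 1130 regions, 43.4% and a median density ratio of 0.759. Without one H3K27ac replicate there were 1350 to 2206 stretches, 16.5 to 29.2% of the span, 1368 to 2624 regions, ratios of 0.460 to 0.462 and 0.494 to 0.495, and 45.9 to 52.6% with H3K27me3; the lower counts are without replicate 1. H3K27me3 with a -log10 q of at least 5 gave 235 regions, 19.6% and a median density ratio of 0.738. Chromosome 4 included gave ratios of 0.278 and 0.300. H3K27ac and the H3K27me3 on it left out of the rest gave 0.478 and 0.528. Trimming 10 kb from each end gave 33.3%. Leaving out the 4 richest stretches, an alternative chosen after seeing the data, gave 0.303, 0.327 and a median density ratio of 0.714. These stretches were picked for their H3K27me3, and the rest kept its own rich places. Lower ratios of regions and bp per Mb therefore follow from the removal, and no comparison is drawn from this alternative. Fewer H3K27ac regions make longer intervals by construction, and the cause of the other shifts was not tested. Median -log10 q inside over rest stayed at 0.959 to 1.06. At this depth a stretch is free of called H3K27ac, which does not show that it carries none.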

Other observations

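The gene table used here for names only is of the assembly GRCz12tu. In it, 19 symbols of the clustered protocadherin genes (pcdh1 or pcdh2) are on chromosome 10 and 25 on chromosome 14. Clustered protocadherins are cell adhesion genes in tandem arrays, best known from neurons. The chromosomes are those of the stretches with most H3K27me3 regions. They span 45.4 and 52.6 Mb, so a shared chromosome does not place the family at these stretches. The builds differ, so these genes were not placed, and whether any lies in these stretches was not tested.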
